A study of Mus musculus with 14 samples.

Results

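Expression of 10 genes that encode C/EBP, NFI and RUNX transcription factors was followed in mouse mammary epithelial cells that were treated with TGF-β. They were taken by gene symbol, and 10 of the 23284 genes in each of the 2 deposited tables carried these symbols: Cebpa, Cebpb, Cebpd, Cebpg, Nfia, Nfib, Nfic, Nfix, Runx1 and Runx2. Expression was measured by RNA-seq of polyadenylated RNA in 14 libraries and is given in FPKM, a read number scaled to the length of the transcript and to the depth of the library. EpH4 is an untransformed mouse mammary gland epithelial line, and EpRas is its derivative transformed with H-Ras. Each line was left untreated or treated with 1 ng/ml TGF-β3 for 48 h, with 2 libraries in each of these 4 groups. The other 6 libraries, 1 for each condition, came from EpRas cells transfected with a negative control siRNA (siNC) or with either of 2 siRNA pairs against the ETS family genes Etv4 and Etv5 (pair 1, siEtv4_1 and siEtv5_1; pair 2, siEtv4_2 and siEtv5_2), each with and without TGF-β. EpH4 cells were kept in 10% serum and EpRas cells in 4%, so serum and transformation cannot be told apart in any comparison of the lines. The untransfected and the siRNA samples were processed independently, and tests were made only within each set.

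C/EBP proteins are basic leucine zipper factors that bind DNA as dimers and act in differentiation and in acute phase and cytokine responses. In the mammary gland, Cebpb is needed for ductal and alveolar development, and Cebpd is induced by STAT3 when the gland involutes. NFI proteins bind a palindromic TTGGC element and take part in the expression of milk protein genes. RUNX proteins bind DNA through the Runt domain with the partner Cbfb, and they cooperate with Smads, the signal transducers of TGF-β. The study examined these families, which recognise DNA motifs in regulatory regions, beside the ETS factors. It cites earlier work in which TGF-β induced the epithelial-mesenchymal transition in EpRas and not in EpH4 cells.

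The labelled cell type was checked against marker genes. Of 7 epithelial markers, all 7 were above 0 in every EpRas library and 6 in every EpH4 library, where Krt19 was listed at 0. Their summed level ranged from 1690 to 4608 FPKM. The lowest sum was in treated EpRas replicate 1, against 3252 FPKM in replicate 2. Without TGF-β, Cdh1 (log2 -0.96), Cldn4 (-1.80) and Cldn7 (-1.73) were lower in EpRas than in EpH4 cells (adjusted p below 0.05 by limma). With TGF-β, these (-2.15, -2.78 and -2.00) and Epcam (-2.42) were lower. Krt8 and Krt18 did not pass. Krt19 went the other way, at 17.1 to 37.4 FPKM in untransfected EpRas cells. With TGF-β in EpH4 cells Cdh1 rose (log2 0.79, adjusted p = 0.0210 by limma), and none of the 7 was called with TGF-β in EpRas cells. The fibroblast markers summed to 5.50 to 26.8 FPKM in the untreated libraries and to 222 and 247 FPKM in EpH4 cells with TGF-β, most of it Col1a1, and to 8.42 to 43.1 FPKM in the treated EpRas libraries, whereas Thy1 and Lum were listed at 0 in every library. The immune markers summed to at most 11.5 FPKM and the endothelial markers to at most 2.01 FPKM. The relative sequencing depth, recovered from the steps of the lowest FPKM values, differed 2.23-fold between the shallowest and the deepest untransfected library. The total number of reads is unknown.

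The families were expressed at very different levels, and each was led by 1 or 2 of its genes (the stacked plot of family shares). Cebpb was the highest of the 10 genes in each untransfected library. Its level lay between 74.0 and 203 FPKM in the untransfected libraries, above 94.9% or more of all genes in the same library, and it made up 78.7 to 92.9% of the summed level of the 4 C/EBP genes. Ddit3, which encodes a C/EBP protein that lacks a canonical DNA-binding region, is not in this sum and was at 17.6 to 57.9 FPKM, above Cebpg in each untransfected library. Nfix and Nfic followed. Nfix was between 45.8 and 77.9 FPKM and held 48.1 to 59.2% of the NFI sum. Nfic was between 33.5 and 51.1 FPKM and held 35.2 to 46.2%. The ranges of Nfix and Nfic overlapped. Runx1 (7.34 to 23.1 FPKM), Cebpd (4.70 to 31.8), Cebpg (6.89 to 10.9) and Nfib (4.50 to 8.25) formed a middle band with overlapping ranges. Runx2 was lower, at 2.95 to 4.37 FPKM, and Runx1 held 66.8 to 86.8% of the sum of Runx1 and Runx2. Runx3, the remaining RUNX gene, was expressed at 7.15 to 9.62 FPKM. Nfia stayed at or below 1.06 FPKM, and Cebpa at or below 0.968 FPKM.

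**Figure D1:**
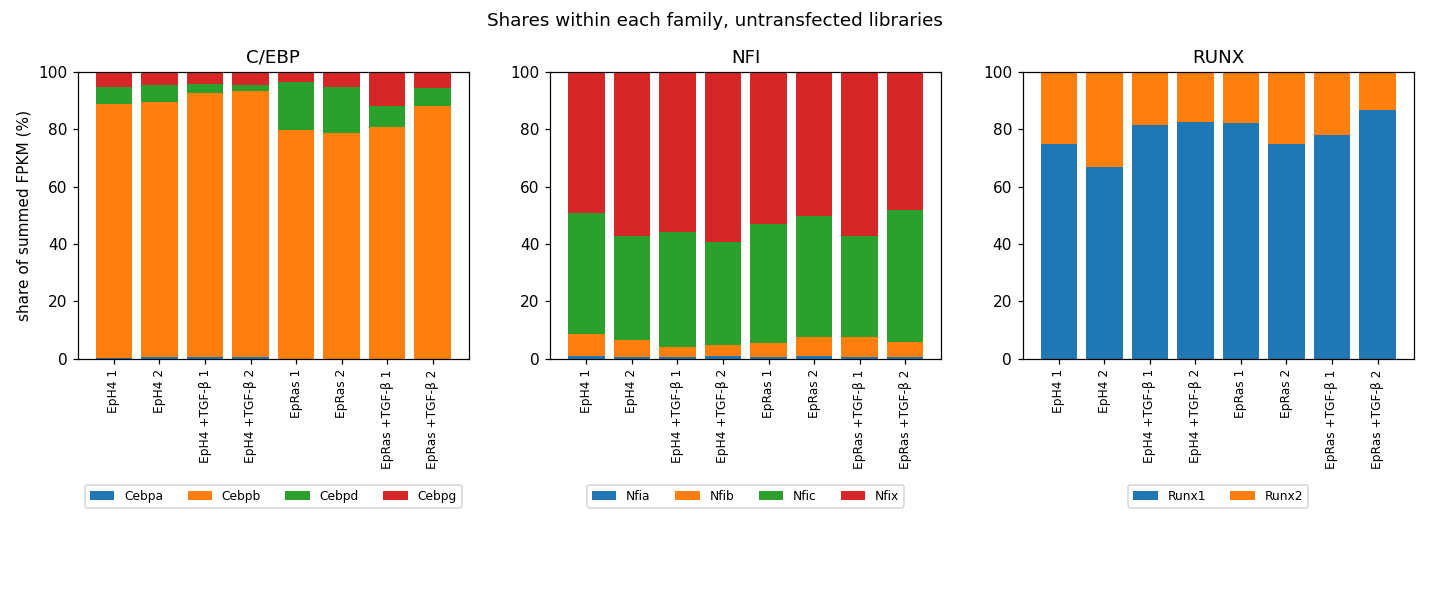
Share (%) of the summed FPKM of the listed C/EBP, NFI and RUNX genes held by each gene in the 8 untransfected libraries, numbered by replicate (Ddit3 and Runx3 are not in the sums). Cebpb holds 78.7 to 92.9% of the C/EBP sum in every library, Nfix and Nfic make up most of the NFI sum, and Runx1 is above Runx2 throughout.

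Cebpd, which encodes C/EBPδ (mm10, chr16:15887286-15891031, plus strand), varied most of the 7 tested genes over the 8 untransfected libraries. Its level was 9.84 and 13.4 FPKM in untreated EpH4 cells and 31.8 and 22.7 FPKM in untreated EpRas cells. With TGF-β it was 6.19 and 4.70 FPKM in EpH4 cells and 6.55 and 9.67 FPKM in EpRas cells. The lowest untreated library of each line was above both treated libraries of that line, and the untreated EpRas libraries were above all others. These levels rested on 119, 220, 234 and 311 reads in the untreated EpH4 and EpRas libraries and on 54, 61, 68 and 78 reads after treatment. In EpRas cells, Cebpd fell to 0.298 of its untreated mean with TGF-β, a log2 change of -1.63 (SE 0.26, limma, adjusted p = 0.0168, n = 2). It was the only one of the 7 tested genes called in this comparison, in which 3.82% of the 9100 genes tested passed the adjusted p threshold of 0.05. The adjusted p ranged from 0.0130 to 0.136 over the alternatives. In these bulk samples, less RNA in each cell and fewer expressing cells cannot be told apart. The adjusted p was 0.128 when EpRas libraries alone were fitted, and it was 0.136, 0.0581 and 0.0861 without untreated replicate 1, untreated replicate 2 and treated replicate 1, respectively.

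In EpH4 cells, the level of Cebpd with TGF-β was 0.468 of the untreated mean, but the difference did not pass the threshold (log2 -0.97, SE 0.26, adjusted p = 0.0649 by limma). The 2 responses were not shown to differ (log2 difference -0.67, SE 0.37, adjusted p = 0.564 by limma). Averaged over both lines, an estimate added after the data were seen, the log2 change of Cebpd was -1.30 (SE 0.19, limma, adjusted p = 0.0044), against a background of 12.3% of genes called. This average passed the threshold without any 1 of the 8 libraries, with adjusted p from 0.0085 to 0.0296. Between the lines, Cebpd was 2.34-fold higher in untreated EpRas than in untreated EpH4 cells (log2 1.16, adjusted p = 0.0240 by limma). This call was lost without untreated EpH4 replicate 1 or 2 or without untreated EpRas replicate 1 (adjusted p = 0.124, 0.0538 and 0.138 by limma), and when the untreated groups alone were fitted (0.0523). With TGF-β, the ratio of EpRas to EpH4 was 1.49 and did not pass (log2 0.49, SE 0.26, adjusted p = 0.228 by limma). The gene lies opposite to Spidr, and in the deposited table its locus ran to position 16146833 across that gene.

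**Figure D2:**
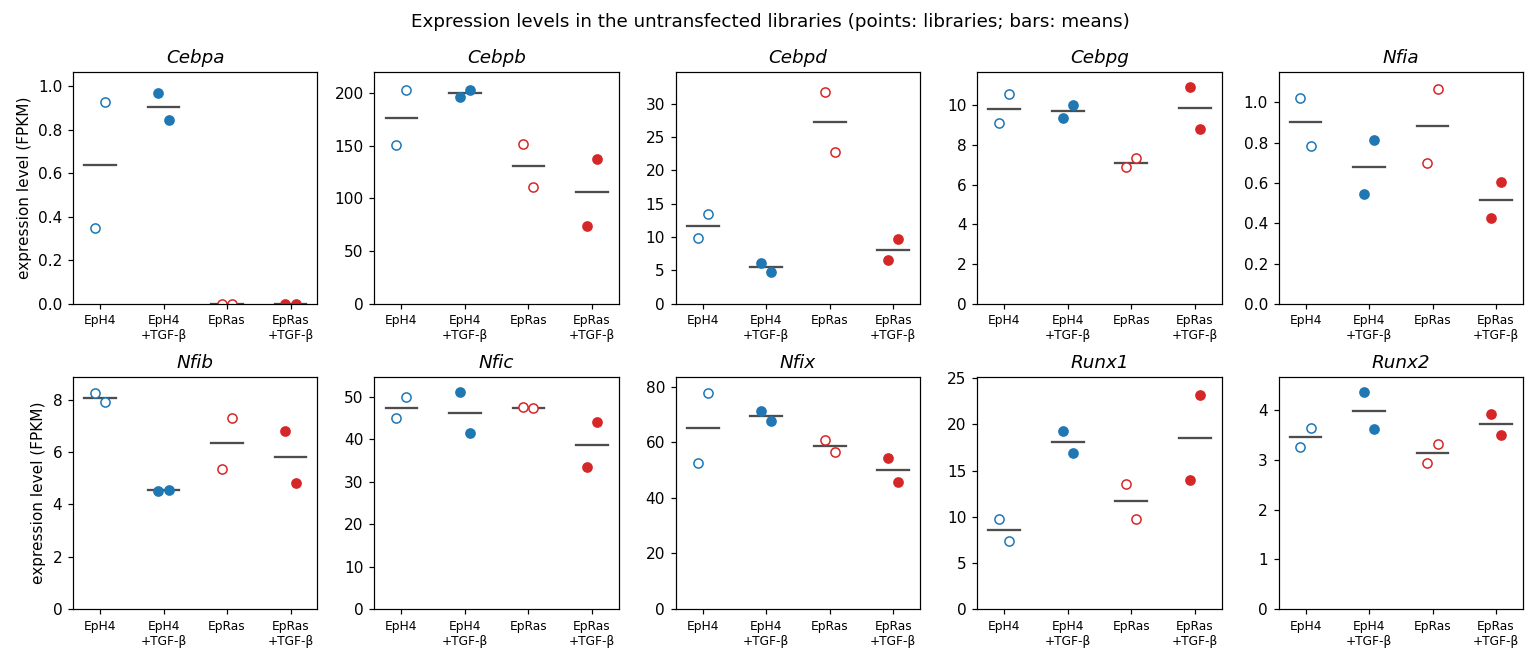
Expression level (FPKM, linear axis from 0, own scale in each panel) of the 10 genes in EpH4 and EpRas cells without (open) and with (filled) TGF-β; points are the 2 libraries of a group and bars their mean. Cebpd lies at 22.7 and 31.8 in untreated EpRas cells and below 10 in every treated library, and Runx1 is higher with TGF-β in both lines.

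Runx1, which encodes the DNA-binding subunit of core-binding factor (chr16:92601466-92826149, minus strand), was higher with TGF-β in each setting measured. In EpH4 cells its level was 9.72 and 7.34 FPKM without and 19.3 and 16.9 FPKM with TGF-β. In EpRas cells it was 13.6 and 9.79 FPKM without and 13.99 and 23.1 FPKM with TGF-β. The treated and untreated libraries did not overlap in either line. In EpRas cells this also held for Cebpg, Nfic and Nfix, none of which was called. The lower treated EpRas library of Runx1 was close to the higher untreated one. The ratio of means was 2.12 in EpH4 cells (log2 1.01, SE 0.27, adjusted p = 0.0631 by limma) and 1.59 in EpRas cells (log2 0.60, SE 0.27, adjusted p = 0.350 by limma), and neither passed the threshold. The change in EpH4 cells passed under 1 of 14 alternatives, with only the EpH4 groups in the fit (adjusted p = 0.0466 by limma). Over the alternatives its log2 value ranged from 0.77 to 1.19. The average over both lines was 0.81 on the log2 scale (SE 0.19, limma, adjusted p = 0.0359). This call was kept without treated EpRas replicate 1 (adjusted p = 0.0195) and lost when any 1 of the other 7 libraries was left out (0.0581 to 0.145).

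In the siRNA set, Runx1 was again higher in each treated library than in its untreated counterpart. Its level was 12.1, 13.4 and 13.3 FPKM in the siNC, pair 1 and pair 2 libraries without TGF-β and 21.4, 22.1 and 22.4 FPKM with it. The ratios were 1.77, 1.65 and 1.68, so the 3 treated libraries were close together and clear of the 3 untreated ones. In a model with a term for TGF-β and a term for the knockdown, the TGF-β term was 0.72 (SE 0.13, limma, adjusted p = 0.0507), just outside the threshold, and it passed under 5 of 7 alternatives. The knockdown term of Runx1 was 0.10 (SE 0.14, adjusted p = 0.710 by limma). Runx1 was not called between the lines (log2 0.41 without and -0.0023 with TGF-β, SE 0.27 each, adjusted p = 0.351 and 0.998 by limma).

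**Figure D3:**
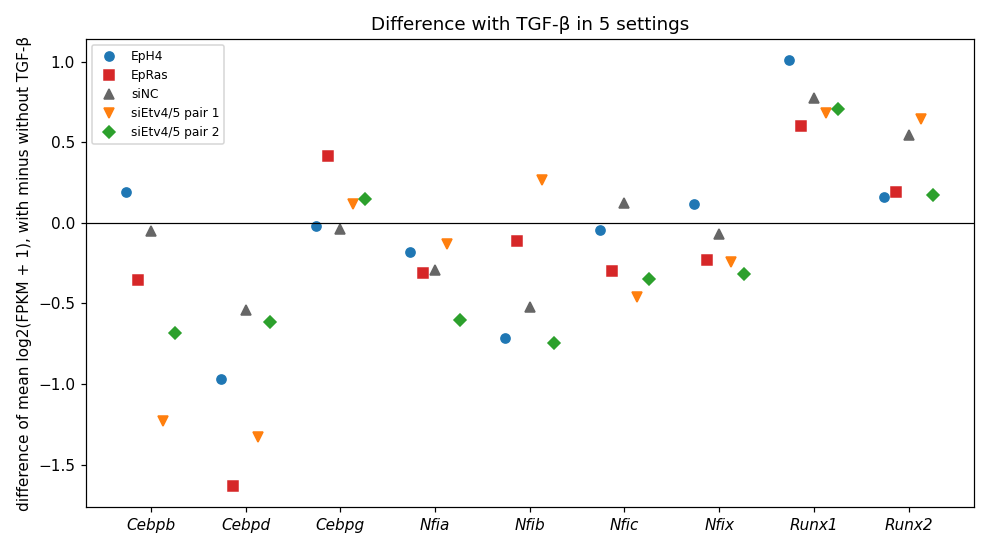
Difference in mean log2(FPKM + 1) between treated and untreated cells for the 9 genes other than Cebpa, in EpH4 and EpRas cells (2 libraries a group) and in the 3 siRNA conditions (1 library each). Runx1 is above 0 and Cebpd below 0 in all 5 settings, at 0.60 to 1.01 and -1.63 to -0.54.

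Runx2, which acts in bone formation (chr17:44495987-44814797, minus strand), remained under the 5 FPKM needed for testing in the untransfected set. Its means were 3.46 and 3.99 FPKM in EpH4 cells without and with TGF-β, and 3.13 and 3.72 FPKM in EpRas cells. In the siRNA set its ratio with TGF-β was 1.61 in siNC cells, 1.75 with pair 1 and 1.16 with pair 2, and its TGF-β term did not pass the threshold (log2 0.46, SE 0.16, adjusted p = 0.220 by limma). It reached 5 FPKM only in the treated pair 1 library (5.38 FPKM), so the filter favoured a higher level with TGF-β. The gene overlaps Supt3 on the opposite strand.

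The RefSeq promoter table (GRCm38.p6; 250 bases before to 50 after a start) held 12 windows for 8 of the 10 genes. Each was searched on both strands for TGTGGT (RUNX), TTGCNNAA (C/EBP), TTGGC (an NFI half-site) and CCGGAA (ETS). Over all 32851 windows of this length, 16.8%, 10.8%, 46.7% and 14.9% held these letters. The window at the distal start of Runx1 held 2 RUNX matches and 2 NFI half-sites, and that of Runx2 held 3 RUNX matches and 1 C/EBP match. The proximal window of Runx1 held the only ETS match among the 12. The 250 bases upstream of that start and of 1 of the 4 Nfix starts are printed 5′ to 3′, since Runx1 was higher with TGF-β in each setting and Nfix was the gene called with the Etv4/5 knockdown. Capitals mark the matches to these 4 sets of letters. AP-1 (TGANTCA) and Smad (CAGAC) letters were also searched and are not marked. The printed Nfix stretch holds 2 Smad matches and the Runx1 stretch 0, where 49.6% of all windows held such letters. A match describes letters, and binding was not measured here.
Runx1 proximal, chr16:92697330-92697579, minus strand: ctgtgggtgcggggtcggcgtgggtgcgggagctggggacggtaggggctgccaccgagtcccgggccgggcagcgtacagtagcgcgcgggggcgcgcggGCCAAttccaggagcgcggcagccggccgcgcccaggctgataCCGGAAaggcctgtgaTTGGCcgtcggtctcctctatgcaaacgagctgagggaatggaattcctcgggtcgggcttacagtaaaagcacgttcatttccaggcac
Nfix, chr8:84772876-84773125, minus strand: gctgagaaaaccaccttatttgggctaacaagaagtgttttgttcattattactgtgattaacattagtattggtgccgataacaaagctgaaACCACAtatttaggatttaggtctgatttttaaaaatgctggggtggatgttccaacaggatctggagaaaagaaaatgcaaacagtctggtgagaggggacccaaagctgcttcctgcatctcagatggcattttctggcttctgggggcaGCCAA
The Runx1 sequence shows NFI half-sites on opposite strands around the ETS letters. The Nfix sequence holds a RUNX match and, at its end, an NFI half-site. Its whole window held 1 RUNX match and 2 NFI half-sites, the most of the Nfix windows. The Nfix window at start 84775828 held 1 RUNX match and 1 NFI half-site, and that at 84773410 held 1 NFI half-site. That at 84780082 held 0 of the marked letters. Which start was used in these cells was not measured.

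Nfix, which encodes nuclear factor I/X (chr8:84699876-84800344, minus strand, overlapping Lyl1 on the opposite strand), had the largest knockdown term of the 8 genes tested in the siRNA set. Without TGF-β its level was 45.8 FPKM in the siNC library and 99.6 and 99.97 FPKM in the pair 1 and pair 2 libraries. With TGF-β it was 43.6, 84.1 and 80.1 FPKM. All 4 knockdown libraries were above both siNC libraries, by ratios of 2.17 and 2.18 without and 1.93 and 1.84 with TGF-β. The sum of the 7 fibroblast markers was also higher in these libraries, at 5.50 FPKM with siNC and 24.6 and 16.5 FPKM with pairs 1 and 2 in untreated cells, and 11.6, 43.1 and 22.4 FPKM after treatment. Of the 3 tested, Pdgfrb and Col1a1 reached 5 FPKM only in knockdown libraries and are given by level. Pdgfrb was at 1.09, 5.25 and 9.35 FPKM in untreated and 2.09, 10.1 and 12.02 FPKM in treated cells with siNC, pair 1 and pair 2. Col1a1 was at 0.629, 14.3 and 2.07 FPKM in untreated and 2.44, 27.7 and 5.399 FPKM in treated cells, in the same order. Pdgfra had a term of -0.59 (adjusted p = 0.3003 by limma), and Thy1 and Lum stayed at 0. The part of these markers in the result for Nfix was not tested. The mean of the pairs reached a 2-fold difference from siNC without TGF-β only for Nfix among the 8 tested genes, where 7.11% of 9094 genes did so in either direction and 3.46% were higher. With TGF-β none of the 8 reached it (6.55% of genes did), although Nfib did with pair 1. Nfib reached 5 FPKM only in knockdown libraries, so the filter favoured a higher level with the knockdown. The knockdown term for Nfix was 1.00 (SE 0.14, limma, adjusted p = 0.0361). Nfix was the only one of the 8 called by this term, which called 2.12% of the genes tested, and its adjusted p was 0.0503 when no filter on low values was applied. These libraries have no replicates within a condition, and the model takes both pairs and both treatments as repeats of 1 effect. Of the targeted genes, Etv5 fell in the same model (log2 -1.77, adjusted p = 0.0205 by limma) and Etv4 did not pass (log2 -1.80, adjusted p = 0.0606 by limma).

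Nfix was not called in any comparison of the untransfected set. It was 52.7 and 77.9 FPKM in EpH4 and 61.0 and 56.7 FPKM in EpRas cells, and with TGF-β 71.4 and 67.8 FPKM and 54.3 and 45.8 FPKM. With TGF-β, both EpRas libraries were below both EpH4 libraries (log2 -0.47, SE 0.21, adjusted p = 0.152 by limma).

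**Figure D4:**
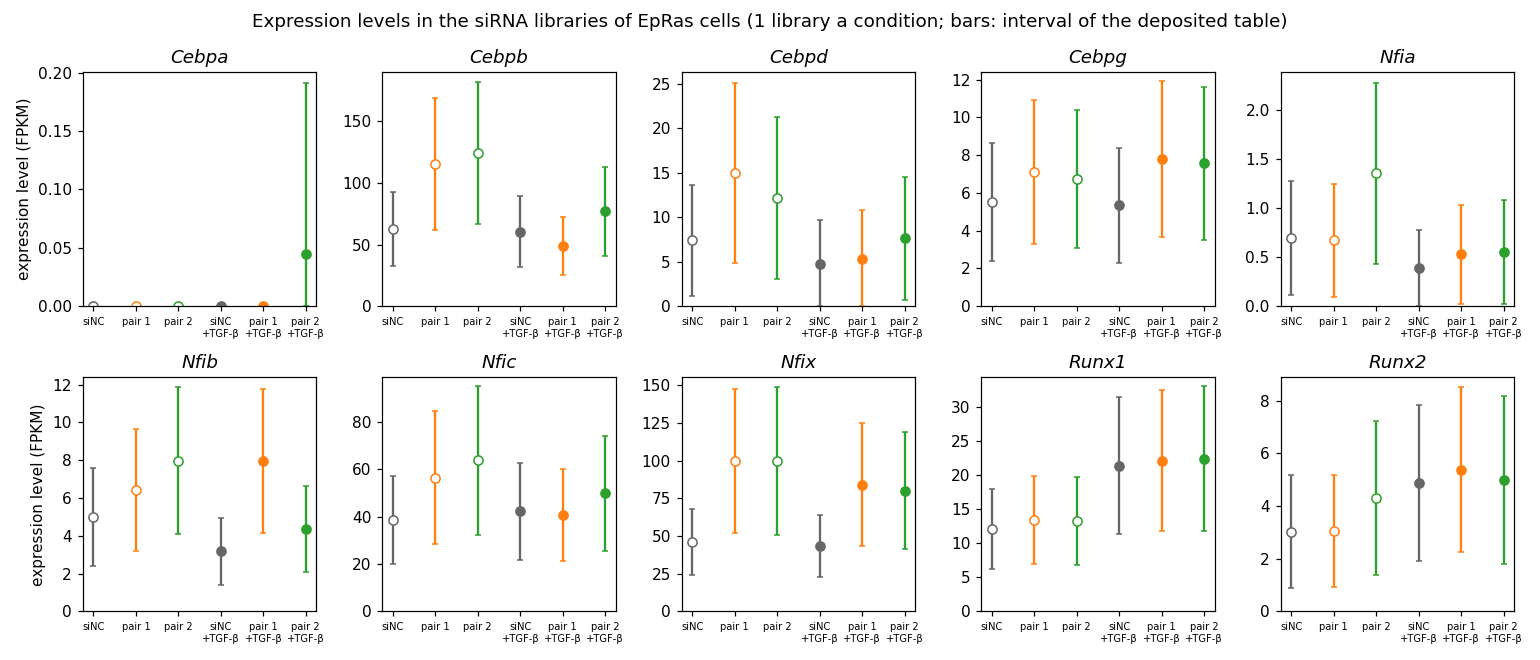
Expression level (FPKM, own scale in each panel) of the 10 genes in EpRas cells transfected with siNC or with siRNA pair 1 or 2 against Etv4 and Etv5, without (open) and with (filled) TGF-β; each point is 1 library and each bar the interval the authors' Cuffdiff run gives for it. Nfix is at 43.6 to 45.8 with siNC and at 80.1 to 99.97 with either pair, and Runx1 is at 12.1 to 13.4 without and 21.4 to 22.4 with TGF-β.

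Nfib (chr4:82290173-82705750, minus strand), a regulator of lung and hair follicle stem cells, was 8.25 and 7.89 FPKM in untreated and 4.50 and 4.57 FPKM in treated EpH4 cells. The groups were far apart compared with their spread, but the difference did not pass over all genes (log2 -0.71, SE 0.20, adjusted p = 0.0733 by limma). It did under 1 of 13 alternatives, with only the EpH4 groups in the fit (adjusted p = 0.0319 by limma). Over the alternatives the log2 change ranged from -0.82 to -0.46. In EpRas cells Nfib was 5.37 and 7.30 FPKM without and 6.80 and 4.81 FPKM with TGF-β, and these values overlapped. The difference between the lines in this response was 0.60 (SE 0.28, adjusted p = 0.503 by limma). In the siRNA set Nfib had no common direction with TGF-β, with ratios of 0.636, 1.24 and 0.545 for siNC, pair 1 and pair 2. Its ratios of knockdown to siNC were 1.29 and 1.60 without and 2.50 and 1.37 with TGF-β for pairs 1 and 2 (knockdown term 0.59, SE 0.24, adjusted p = 0.224 by limma).

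Nfic (chr10:81396186-81455635, minus strand), which is required for tooth root formation, stayed at 44.9 and 49.9 FPKM in EpH4, 51.1 and 41.4 FPKM in treated EpH4, 47.5 and 47.4 FPKM in EpRas and 33.5 and 44.0 FPKM in treated EpRas cells. In the siRNA libraries it was 38.7, 56.6 and 63.9 FPKM without and 42.3, 40.8 and 49.9 FPKM with TGF-β. Its ratio of knockdown to siNC was thus 1.46 and 1.65 without TGF-β and 0.963 and 1.18 with it (knockdown term 0.35, SE 0.19, adjusted p = 0.323 by limma). Nfia (chr4:97772734-98118874, plus strand) was too low to test, at means of 0.903, 0.679, 0.882 and 0.515 FPKM in EpH4, treated EpH4, EpRas and treated EpRas cells.

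Cebpb, which encodes C/EBPβ (chr2:167688915-167690418, plus strand, overlapping Tmem189 on the opposite strand), was 150 and 203 FPKM in untreated EpH4 cells and 151 and 111 FPKM in untreated EpRas cells. With TGF-β it was 197 and 203 FPKM in EpH4 and 74.0 and 137 FPKM in EpRas cells. The lines overlapped without TGF-β and were apart with it. Under TGF-β the ratio of EpRas to EpH4 was 0.529 (log2 -0.98, SE 0.31, adjusted p = 0.0640 by limma). The log2 difference was -1.42 without treated EpRas replicate 2, and at the other end of the alternatives it was -0.54. Treated EpRas replicate 1, the lower of the 2 for Cebpb, also had the lower epithelial marker sum. None of the 7 tested genes was called between the lines with TGF-β, where 21.3% of genes were, and 1, Cebpb, had an unadjusted p below 0.05 (35.8% of genes). The Tukey-Kramer test on FPKM called none of the 7. Without TGF-β, 1 of the 7 (Cebpd) was called against 17.6% of genes.

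In the siRNA libraries the level of Cebpb was 62.8, 115 and 124 FPKM with siNC, pair 1 and pair 2 without TGF-β, and 60.6, 48.7 and 77.0 FPKM with it. Without TGF-β it was 1.84-fold (95% counting interval 1.67 to 2.02) and 1.98-fold (1.80 to 2.18) higher with pairs 1 and 2 than with siNC. With TGF-β the ratios were 0.803 (0.727 to 0.887) and 1.27 (1.16 to 1.39), in opposite directions. These exact binomial intervals were computed from whole reads recovered from the FPKM values and cover counting error only. TGF-β left Cebpb at 0.965 of its level in siNC cells (0.872 to 1.07) and at 0.422 (0.385 to 0.463) and 0.619 (0.570 to 0.672) with pairs 1 and 2. Neither term of the model passed for Cebpb (TGF-β -0.65, SE 0.26, adjusted p = 0.268, and knockdown 0.47, SE 0.28, adjusted p = 0.363, both by limma).

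Cebpd in the siRNA libraries was 7.39, 15.0 and 12.2 FPKM without and 4.77, 5.36 and 7.62 FPKM with TGF-β in the same order. It was lower with TGF-β in all 3 conditions, at 0.646 (counting interval 0.497 to 0.840), 0.358 (0.286 to 0.445) and 0.625 (0.505 to 0.772) of the untreated level. The TGF-β term did not pass over all genes (log2 -0.83, SE 0.19, adjusted p = 0.0988 by limma), nor did the knockdown term (log2 0.57, SE 0.21, adjusted p = 0.176 by limma). None of the 8 genes was called by the TGF-β term, which called 2.5% of the genes tested, and 3 (Cebpb, Cebpd and Runx1) had an unadjusted p below 0.05, as did 17.8% of genes, leaving aside Runx2, which was tested through 1 treated library.

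Cebpg, which encodes a C/EBP protein without a classical activation domain (chr7:35046422-35056573, minus strand), varied least of the 3 tested C/EBP genes. It was 9.12 and 10.6 FPKM in EpH4, 9.38 and 10.0 FPKM in treated EpH4, 6.89 and 7.34 FPKM in EpRas and 10.9 and 8.79 FPKM in treated EpRas cells. The untreated EpRas libraries were the lowest (log2 -0.42 against EpH4, SE 0.16, adjusted p = 0.128 by limma). With the knockdown it was 1.22 to 1.46 times the siNC level in the 4 comparisons, and the knockdown term did not pass (log2 0.37, SE 0.14, adjusted p = 0.202 by limma).

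Cebpa, which encodes C/EBPα (chr7:35119293-35121928, plus strand), was near the limit of detection, and of the untransfected libraries only those of EpH4 cells held reads of it. Its level was 0.349 and 0.927 FPKM without and 0.968 and 0.846 FPKM with TGF-β in EpH4 cells, from 5, 18, 10 and 13 reads. It was 0 FPKM in all 4 EpRas libraries. Against a floor of 3 reads over both EpRas libraries, EpH4 cells had at least a 5.67-fold higher level without TGF-β. With TGF-β the level was at least 6.51-fold higher. Each limit rested on 23 against 0 reads. The untreated limit came mostly from replicate 2, with 18 reads against 5. The level in untreated replicate 1 alone, 0.349 FPKM, was nearer the floor of 0.120 FPKM and would give a lower limit. In the siRNA libraries of EpRas cells, Cebpa had 0 reads in 5 libraries and 1 read in the pair 2 library with TGF-β. At this level the gene was under the filter. Without a filter, the log2 differences between the lines were -0.69 and -0.93 without and with TGF-β (adjusted p = 0.0497 and 0.0164 by limma). With EpRas cells at 0, their size depends on the 1 FPKM added before taking logs, so they give no fold change.

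In EpH4 cells, none of the 7 tested genes was called with TGF-β, where 9.4% of genes were, and 3 (Cebpd, Nfib and Runx1) had an unadjusted p below 0.05, as did 23.9% of genes. A Tukey-Kramer test on FPKM also called none of them. For the difference in response between the lines, none of the 7 was called, against 0.802% of genes, and none had an unadjusted p below 0.05, as 10.9% of genes had.

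Genes that the families work with or bind were counted from lists, to be read beside the share of all genes called between the lines (17.6% without and 21.3% with TGF-β) and with TGF-β (9.4% in EpH4 and 3.82% in EpRas cells). Of 11 RUNX cofactors, 7 were tested, and 1 was called between the lines, Wwtr1, a transcriptional coactivator, which was higher in EpRas cells without (log2 1.04) and with TGF-β (0.74). This share is near that of all genes. None of the 7 was called with TGF-β in either line, and 2 in EpH4 and 1 in EpRas cells had an unadjusted p below 0.05, as did 23.9% and 15.8% of all genes. Of 8 skeletal genes bound by RUNX factors, 3 were tested. The gelatinase gene Mmp9 rose with TGF-β in both lines (log2 6.37 in EpH4 and 3.95 in EpRas cells), where 6.48% and 1.9% of all genes rose. The collagenase gene Mmp13 reached 5 FPKM only in treated libraries and is not counted here, and its level was 0.964 and 1.37 FPKM without and 26.5 and 27.0 FPKM with TGF-β in EpH4 cells, and 4.63 and 4.74 FPKM without and 36.8 and 31.8 FPKM with it in EpRas cells. Between the lines, Mmp13 was higher in EpRas cells without TGF-β (1.40), and Mmp9 was lower in EpRas cells with it (-2.99). Spp1 was not called. In the siRNA model the knockdown term of Mmp13 was -1.84 (adjusted p = 0.0224 by limma). It was the only 1 of the 3 tested called by this term, which called 2.12% of all genes tested. The TGF-β term, which called 2.5% of them, called Mmp9 (5.00). Mmp13 had a TGF-β term of 1.86 and, as in the untransfected set, is not counted.

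Of 9 acute phase genes bound by C/EBP, 4 were tested. Hp reached 5 FPKM in untreated EpH4 replicate 1 only (7.30 FPKM, and 3.07 FPKM in replicate 2), so its lower values elsewhere are not counted here. Of the other 3, C3 (log2 -1.86) and Cp (-1.30) were lower in untreated EpRas than in untreated EpH4 cells, as were 9.11% of all genes, while Cebpd was higher. With TGF-β, C3 (-3.40), Cp (-2.22) and Lcn2 (-3.93) were lower in EpRas than in EpH4 cells. In EpRas cells C3 (-1.14), Cp (-1.65) and Lcn2 (-2.21) fell with TGF-β, the direction of Cebpd, as did 1.92% of all genes. In EpH4 cells none of these 3 was called. There, C3 (0.40) and Lcn2 (0.59) lay opposite to Cebpd, which was not called either, and Cp (-0.73) lay in its direction. Cebpb was lower in EpRas than in EpH4 cells without (-0.43) and with TGF-β (-0.98). With TGF-β it changed by 0.19 in EpH4 and -0.36 in EpRas cells, and none of these differences passed. Whether any C/EBP factor acts on these genes here was not tested. In the siRNA set 2 of the 9 were tested, and the TGF-β term of C3 (-0.96) did not pass. That of Cp was -2.18 and is not counted. In untransfected EpRas cells Cp was near the 5 FPKM needed for testing, at 4.47 and 5.47 FPKM without and 1.31 and 0.563 FPKM with TGF-β. The response of C3 differed between the lines (-1.54, adjusted p = 0.0221 by limma), and those of Cp and Lcn2 were not shown to differ. In the STAT3 route to Cebpd, 4 of 8 genes were tested. Without TGF-β the receptor gene Il6st was lower (-0.89) and the feedback gene Socs3 higher (0.94) in EpRas than in EpH4 cells. With TGF-β, Il6st (-1.11) and Stat3 (-0.56) were lower in EpRas cells. Stat3 rose with TGF-β in EpH4 cells (0.66), and none of the 4 was called with TGF-β in EpRas cells. Of 6 partners and regulators of C/EBP, 5 were tested. The repressor gene Nfil3 rose with TGF-β in EpH4 cells (0.91) and was lower in EpRas than in EpH4 cells with TGF-β (-1.01), and Trib3 was higher in EpRas than in EpH4 cells (0.99 without and 1.46 with TGF-β). Of the 7 milk protein genes only Csn3 passed the filter, and it did so through treated EpRas replicate 1 alone. Its level was 6.97 and 2.93 FPKM in treated EpRas cells, 2.203 and 0.969 FPKM in untreated EpRas cells and at most 0.244 FPKM in EpH4 cells, given here as a description. Of the targeted genes, Etv4 (0.78 without and 0.71 with TGF-β) and Etv5 (0.71 and 0.90) were higher in EpRas than in EpH4 cells.

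The genes with patterns most like those of Cebpd, Runx1 and Cebpb, the 3 tested genes of the families with the widest range, were sought among the 9100 genes over the 8 untransfected libraries. Cebpd was followed most closely by Tinagl1 (Pearson r 0.983), Dcxr (0.976) and Dtnb (0.969), Runx1 by Zbtb8a (0.980), Fam171a2 (0.975) and Ppp2r5b (0.973), and Cebpb by Lrrc8d (0.981), Stk11ip (0.980) and 2610039C10Rik (0.979). These coefficients describe 8 libraries in 4 groups, and the highest of many coefficients are high by selection.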

How the data were processed

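Per the labels and the methods of the study, total RNA was enriched for mRNA, directional libraries were sequenced on the Ion Proton, and the reads were aligned to mm10 with TopHat2 2.0.11 and Bowtie2 2.2.2.2. The deposited values are FPKM with intervals, made by the authors with Cufflinks 2.2.0 and Cuffdiff in a separate run for each of the 2 sets. A figure legend of the study calls the replicates of the untransfected RNA-seq biological. Whether counting used the strand is not given in the sources used here, so reads of Cebpb, Cebpd, Nfia, Nfix and Runx2 and of genes on the opposite strand may not be told apart.

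From these, log2(FPKM + 1) was compared with limma 3.58.1 (R 4.3.3) over genes reaching 5 FPKM in at least 1 library of the table, 9100 untransfected and 9094 siRNA. All 4 untransfected groups shared a fit, and the siRNA fit had terms for TGF-β and the knockdown. Adjusted p-values are Benjamini-Hochberg over all tested genes. FPKM are not counts, and a fold change on this scale understates that of low genes. The filter left out Cebpa and Nfia in both sets and Runx2 in the untransfected one. For the 4 C/EBP genes, each with 1 start site, whole reads were recovered from the FPKM steps (tolerance 0.01 reads). Scripts were tested on simulated data.

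The 10 genes and the lists were chosen with earlier results of these data known. All 10 are described. Genes of the other lists, apart from the cell type markers, are named where past the threshold in a comparison of 2 groups, at most 4 a list and comparison by size. Of the markers, not every call is named. Krt19, Hp and Csn3, and Mmp13 with TGF-β, passed the filter only through the libraries where they are high and are given by level. The likeness search covers the 3 widest-ranging genes. Alternatives were other pseudocounts and filters, centring, an intensity trend, a replicate block, only the compared groups, the Tukey-Kramer test, each siRNA pair alone and each library left out. Those chosen after seeing the data were the effect averaged over both lines, a crossed block and the alternatives to the knockdown term. Positions are from GENCODE M21, and promoters from RefSeq.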

Additional observations from a re-analysis of the deposited data

How the results depend on the processing

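With 2 libraries a group, 1 library decides several calls. The number of genes of the 3 families called between the untreated lines was 2 with no filter (Cebpa added), 0 with only the compared groups in the fit (Cebpd lost) and 0 to 1 with a library left out. With TGF-β it was 1 with no filter and 1 by Tukey-Kramer (Cebpa in both), 1 with the crossed block and 0 to 1 with a library left out (Cebpb in both). TGF-β in EpH4 cells gave 2 with only the groups compared (Nfib and Runx1), and in EpRas cells 0 with only the groups compared and 0 to 1 with a library left out. In the siRNA set the TGF-β term called 1 gene (Runx1) at log2(FPKM + 5), with no filter, with a mean of at least 10 FPKM, with an intensity trend and with the siRNA condition as a block. The knockdown term called 0 with no filter, and pair 1 alone gave 1 gene at 2-fold with TGF-β. The cause of these changes was not tested. Small differences near 0 changed sign. Centring moved Nfic between the untreated lines to -0.0048, and Runx1 between the treated lines became 0.0035 at log2(FPKM + 5), 0.0033 with centring and 0.035 as the log2 ratio of mean FPKM + 1 beside the Tukey-Kramer test. With a library left out, the log2 difference between the untreated lines ranged from -0.070 to 0.077 for Nfic and from -0.40 to 0.15 for Nfix, and that between the treated lines from -0.13 to 0.16 for Cebpg and from -0.35 to 0.34 for Runx1. The change with TGF-β in EpH4 cells ranged from -0.022 to 0.41 for Cebpb, -0.16 to 0.39 for Nfix, -0.11 to 0.079 for Cebpg and -0.19 to 0.11 for Nfic, and in EpRas cells from -0.32 to 0.10 for Nfib and -0.80 to 0.083 for Cebpb.

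Libraries of the same replicate number did not vary together (correlations of replicate differences from -0.35 to 0.08). The lowest were those of untreated EpRas with treated EpRas (-0.35) and with untreated EpH4 cells (-0.26). Whether the samples were paired under other numbers is not known. With the replicate block, the genes of the families called were 1 and 0 between the lines without and with TGF-β and 0 and 1 with TGF-β in EpH4 and EpRas cells, as without it, whereas over all genes the calls went from 1598 to 1121, 1935 to 1520, 855 to 547 and 348 to 222. Crossing the numbers of the untreated EpRas libraries gave 1702, 2149, 872 and 363. The depth limits Cebpa, at 18 reads or fewer in any library.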
